A study of Homo sapiens with 6 samples.

Results

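The genes followed here encode amino acid transporters, measured in OE-19 cells after knockdown (KD) of the RNA-binding protein IGF2BP3. They are the rows of the deposited count table that carry the symbols *SLC7A1*, *SLC7A5*, *SLC7A11*, *SLC3A2*, *SLC1A4*, *SLC1A5*, *SLC38A1*, *SLC38A2*, *SLC43A1* and *SLC6A9*, 10 of 60480 gene identifiers. OE-19 is an established line from an adenocarcinoma of the esophagogastric junction. Poly(A) RNA was sequenced from 3 libraries of cells with a control shRNA (control) and 3 of cells with an shRNA against *IGF2BP3* (IGF2BP3 KD). All were grown in the same RPMI1640 medium with serum. The control libraries are titled shControl, while their count columns are headed Puro. The labels give no time after knockdown and do not say whether the 3 libraries of a group came from separate cultures, so the p-values below measure only the spread between these libraries, which may be technical. The 10 genes were selected on values of this same contrast, their levels in KD against control libraries. Their levels, changes and counts of calls are therefore given as a description, and no p-value is given for any of them.

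Amino acids are charged or polar and cross the plasma membrane through solute carriers. Some carriers are exchangers that trade an amino acid inside the cell for another outside, some use the sodium gradient, and some let their substrate pass down its gradient. Several are known targets of the transcription factor ATF4, which is translated when cells lack amino acids, and the leucine and glutamine they bring in feed the kinase complex mTORC1, which drives growth. *SLC7A5*, *SLC7A11* and *SLC1A5* are often abundant in epithelial tumors.

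Libraries held 58966114 to 69989087 counts in the control group and 53424071 to 63008137 in the KD group. *IGF2BP3* itself had 7416, 7363 and 6532 counts in the control libraries and 777, 792 and 794 in the KD libraries, so that KD left 12.2% of the control level. All 8 epithelial markers looked up were present at a mean of 1 CPM (counts scaled to library size) or more in both groups. Of 10 markers of immune, stromal and endothelial cells, 2 reached that level, *CD68* and *COL1A1*. The summed level of these 10 was 55.1 to 61.9 CPM in the control and 83.6 to 84.2 CPM in the KD libraries. Most of the sum was *CD68*, with means of 35.8 CPM in the control and 51.9 CPM in KD, and *COL1A1*, with 21.7 and 30.8 CPM. The others had means under 1 CPM in both groups, with *CD3E* and *COL1A2* at 0 throughout. Whether the difference in the sum had a part in the transporter values was not tested.

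Of the 10 transporters, 8 had enough counts to be fitted. The quasi-likelihood test of edgeR, adjusted by Benjamini-Hochberg over 19778 genes, called 6 of the 8 lower in KD and 0 higher at an adjusted p under 0.05. At an unadjusted p under 0.05 these counts were also 6 and 0, and DESeq2 gave 6 and 0. Among all genes tested 20.4% were called, 10.6% lower and 9.87% higher. In the same 6 transporters every KD value was below every control value, which held for 17.8% of all genes tested, and values did not overlap in either direction for 35.8%. As the contrast chose the transporters, nothing is read from their counts against these shares. The median log2 fold change of the 8 was -0.38 against 0.01 over all genes. Added together, the transporters took 2227, 2296 and 2278 CPM in the control libraries and 1713, 1727 and 1746 CPM in the KD libraries. The KD sum was 76.3% of the control sum. In bulk RNA such a difference cannot be told apart from a change in the make-up of the culture, since fewer cells with a transcript and less of it per cell give the same value. CPM is scaled by the trimmed mean of M-values (TMM) and rests on between 9918 and 57264 counts per library for *SLC1A5*, *SLC7A5*, *SLC7A1*, *SLC3A2* and *SLC7A11*.

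**Figure D1:**
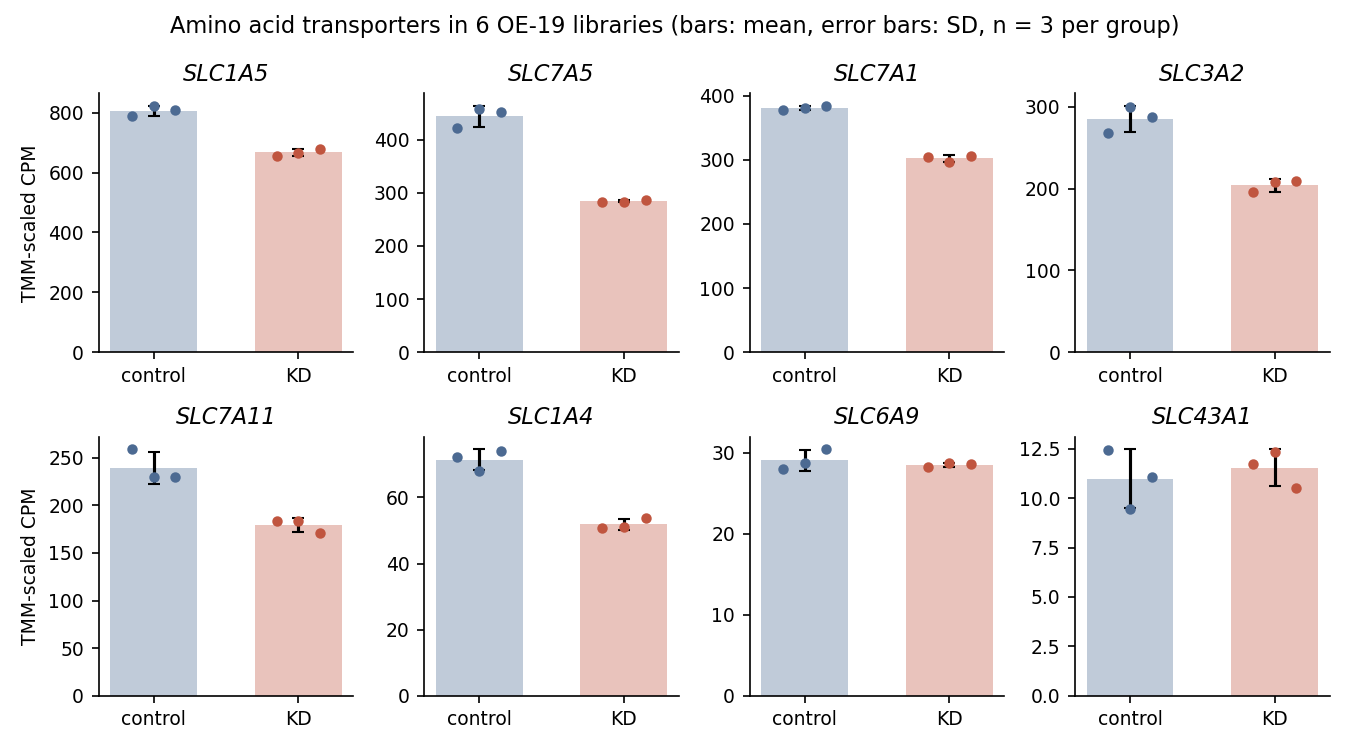
TMM-scaled CPM of the 8 transporters with counts, one panel per gene with its own vertical axis from 0, in control and IGF2BP3 KD libraries (points: libraries, bars: mean, error bars: SD, n = 3). The KD points lie below all control points for 6 genes, from *SLC1A5* (806 to 667 CPM) to *SLC1A4* (71.4 to 51.9 CPM), and overlap with them for *SLC6A9* and *SLC43A1*.

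*SLC7A5* (ENSG00000103257) encodes LAT1, the exchanger that brings in leucine and other large neutral amino acids. It was the most strongly lowered of the 8. It measured 421, 457 and 453 CPM in the control libraries and 283, 283 and 286 CPM in the KD libraries. The lowest control library stood well above the highest KD library, and the 3 KD libraries were within 3 CPM of each other. The mean went from 444 ± 19.8 to 284 ± 1.69 CPM (SD, n = 3), a log2 fold change of -0.64 with a standard error of 0.03, so 64.0% of control. Over the 9 pairings of a KD with a control library this share ran from 61.8% to 67.9%. Among the tested genes, 5.21% had a lower log2 fold change. The gene lies on the minus strand at chr16:87830023-87869507 (hg38), and 271 of its exonic bases overlap a long non-coding RNA (ENSG00000260466) on the opposite strand.

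*SLC3A2* (ENSG00000168003, chr11:62856004-62888880, plus strand) encodes the 4F2 heavy chain, also called CD98, a glycoprotein that carries LAT1, the cystine exchanger and other light chains to the cell surface. It measured 268, 300 and 288 CPM in the control and 195, 208 and 209 CPM in the KD libraries. No KD library reached the lowest control library. The mean was 285 ± 16.0 CPM in the control and 204 ± 7.50 CPM in KD (SD, n = 3), a log2 fold change of -0.48 (standard error 0.04).

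*SLC7A11* (ENSG00000151012) encodes xCT, which takes up cystine in exchange for glutamate and thereby supplies cysteine for glutathione. It measured 259, 230 and 230 CPM in the control and 184, 183 and 171 CPM in the KD libraries. The groups did not overlap. The mean was 239 ± 16.9 CPM in the control and 180 ± 7.01 CPM in KD (SD, n = 3), a log2 fold change of -0.42 (standard error 0.05). *SLC7A11* lies on the minus strand at chr4:138164097-138242349 and shares 865 exonic bases with its antisense gene *SLC7A11-AS1*. Reads over those bases could have been counted to either gene or to none. The strand and overlap settings of the counting were not given in the sources used here. *SLC7A11-AS1* fell from 4.78 ± 0.375 to 2.87 ± 0.350 CPM (SD, n = 3), a log2 fold change of -0.74 (edgeR, adjusted p = 0.0076). It held a small fraction of the counts of *SLC7A11*.

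The other light chains that pair with SLC3A2 are no members of the 10. *SLC7A7* and *SLC7A6*, which encode exporters of cationic amino acids in exchange for neutral ones, had log2 fold changes of -0.09 (standard error 0.03, adjusted p = 0.11) and -0.03 (standard error 0.05, adjusted p = 0.75) in edgeR's test. *SLC7A8*, which encodes a neutral amino acid exchanger (LAT2), had 0.25 (standard error 0.15, adjusted p = 0.32). None of the 3 was called. A gene's level can be set beside another's only per length, so CPM was divided by the length of all exons of the gene merged together in kilobases (kb). On that scale *SLC3A2* was at 42.0, 46.9 and 45.0 CPM per kb in the control and 30.6, 32.5 and 32.7 in KD. The light chains together were at 142, 148 and 146 in the control and 105, 105 and 104 in KD. The ratio of the heavy chain to summed light chains was 0.295, 0.317 and 0.309 in the control and 0.292, 0.310 and 0.314 in KD, overlapping values with means of 0.307 ± 0.0111 and 0.305 ± 0.0121 (SD, n = 3). The ratio depends on the length used. With the longest transcript of each gene, a choice added after the data were seen, it was 0.601 ± 0.0215 in the control and 0.581 ± 0.0229 in KD (SD, n = 3), and the groups again overlapped. Within the light chains, *SLC7A5* made up 64.0% ± 1.66 in the control and 57.0% ± 0.606 in KD, and *SLC7A11* 17.1% ± 1.55 and 17.8% ± 0.614 (SD, n = 3).

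**Figure D2:**
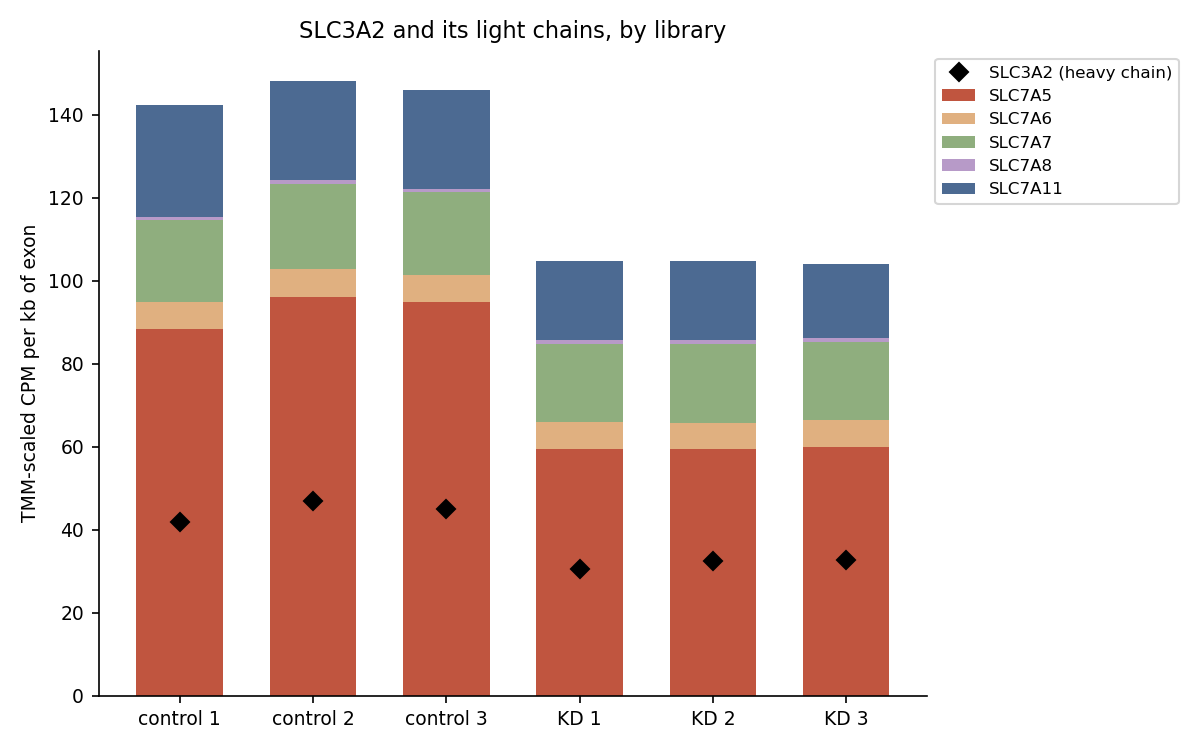
Stacked bars give the TMM-scaled CPM per kb of exon of the light chains of SLC3A2 in each library, and black diamonds give *SLC3A2*. The stack is 142 to 148 high in the control and 104 to 105 in KD, and the block that shrinks most is *SLC7A5*. *SLC7A10*, near 0, is left out.

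*SLC7A1* (ENSG00000139514, chr13:29509414-29595688, minus strand) encodes CAT1, the main uptake route for arginine and lysine, and needs no heavy chain. It measured 378, 381 and 384 CPM in the control and 304, 296 and 307 CPM in the KD libraries. The 3 libraries of each group were close together and the groups far apart. The mean was 381 ± 3.07 CPM in the control and 302 ± 5.40 CPM in KD (SD, n = 3), a log2 fold change of -0.34 (standard error 0.03), so 79.3% of control.

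*SLC1A5* and *SLC1A4* encode the sodium-dependent neutral amino acid exchangers ASCT2, the main route for glutamine in many tumors, and ASCT1, which carries alanine, serine and cysteine. *SLC1A5* (ENSG00000105281, chr19:46774883-46788594, minus strand) measured 788, 822 and 808 CPM in the control and 657, 665 and 680 CPM in KD. It was the highest transporter of the 10 and, of the 6 called lower, the least lowered, at a log2 fold change of -0.27 (standard error 0.02), so 82.8% of control. *SLC1A4* (ENSG00000115902, chr2:64988477-65023865, plus strand) was lower in level, at 72.2, 68.0 and 74.1 CPM in the control and 50.7, 51.2 and 53.8 CPM in KD. Its log2 fold change was -0.46 (standard error 0.05), so 72.6% of control. In neither gene did a KD library reach a control library. Of the exonic bases of *SLC1A5*, 780 overlap a non-coding gene (ENSG00000275719) on the opposite strand.

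*SLC43A1* and *SLC6A9* were not called. *SLC43A1* (ENSG00000149150, chr11:57484534-57515780, minus strand) encodes LAT3, a carrier of branched-chain amino acids that works without exchange. It measured 12.4, 9.45 and 11.1 CPM in the control and 11.7, 12.4 and 10.5 CPM in KD, overlapping values. The log2 fold change was 0.07 with a standard error of 0.11, and the KD share of control over the 9 pairings of libraries ran from 84.8% to 131%. *SLC6A9* (ENSG00000196517, chr1:43991500-44031467, minus strand) encodes the glycine transporter GlyT1. It measured 28.0, 28.8 and 30.4 CPM in the control and 28.3, 28.7 and 28.6 CPM in KD, again overlapping. Its log2 fold change was -0.03 with a standard error of 0.06, and its share over the pairings ran from 92.9% to 103%. *SLC6A9* shares 413 exonic bases with *CCDC24* on the opposite strand.

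Per kb of exon the order of levels was the same in both groups, *SLC1A5*, *SLC7A5*, *SLC7A1*, *SLC3A2*, *SLC7A11*, *SLC1A4*, *SLC6A9* and *SLC43A1*, with no overlap between neighbours in either group. In the control the values fell from 242 ± 5.15 CPM per kb for *SLC1A5* through 93.1 ± 4.16 for *SLC7A5* and 49.6 ± 0.399 for *SLC7A1* to 3.12 ± 0.423 for *SLC43A1* (SD, n = 3). Among the 13990 coding genes that passed the low-count filter, the control level of *SLC1A5* was above that of 99.4% of them, that of *SLC7A5* above 98.2% and that of *SLC43A1* above 40.7%. *SLC1A5* made up 51.1% of the summed transporter level per kb in the control and 54.7% in KD, and *SLC7A5* 19.7% and 16.3%. The order in the middle rests on the length used. With the longest transcript of each gene, *SLC3A2* moved up to rank 2 in the control, where it overlapped *SLC7A5*, at 100 ± 5.63 and 97.4 ± 4.35 CPM per kb (SD, n = 3). In KD it was at rank 2 as well and did not overlap *SLC7A5*, at 71.8 ± 2.64 and 62.3 ± 0.371 CPM per kb, while *SLC1A4* and *SLC6A9* overlapped, at 8.96 ± 0.291 and 8.90 ± 0.0747 (SD, n = 3).

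*SLC38A1* (ENSG00000111371, chr12:46183063-46270017) and *SLC38A2* (ENSG00000134294, chr12:46358188-46372773) encode the sodium-coupled glutamine and alanine carriers SNAT1 and SNAT2, the second of which is induced when amino acids run short. Both had 0 counts in all 6 libraries. A count of 0 allows up to 3 counts, which is 0.0431 to 0.0556 CPM depending on the library, and covers counting error only. The limit holds only if the 0 values are true counts, which the table does not show. They were not the only such genes there. *SLC38A1* and *SLC38A2* lie side by side on the minus strand within a run of 13 coding genes in a row, from *ADAMTS20* to *SLC38A4*, that had 3 counts or fewer in every library. The run spans chr12:43353866-46832408, 3479 kb, and was noticed after the values were seen. It holds genes with broad roles, such as *TWF1*, which encodes an actin-binding protein, *IRAK4*, a kinase of innate immune signaling, *ARID2*, a chromatin remodeling subunit, and *SCAF11*, a splicing factor. Of the 13, *ANO6* alone had any count, 1 each in control library 2, KD library 1 and KD library 3. The span holds 48 genes of any type, of which 33 had 0 counts in every library and none passed 22 in any. *AMIGO2*, the next coding gene on the side of *SLC38A4*, had 3660, 3810 and 3162 counts in the control and 1704, 2122 and 2131 in KD. On the other side the next coding gene, *PRICKLE1*, was low, with 17, 15 and 12 counts in the control and 25, 0 and 0 in KD. *ZCRB1*, farther out on that side, had 9180, 8817 and 7350 in the control and 7368, 8210 and 8277 in KD. For comparison, 18.3% of all 19905 coding identifiers had 3 counts or fewer in every library. Why these genes are at 0 was not tested, and the 2 SLC38 genes give no information on the response to KD.

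**Figure D3:**
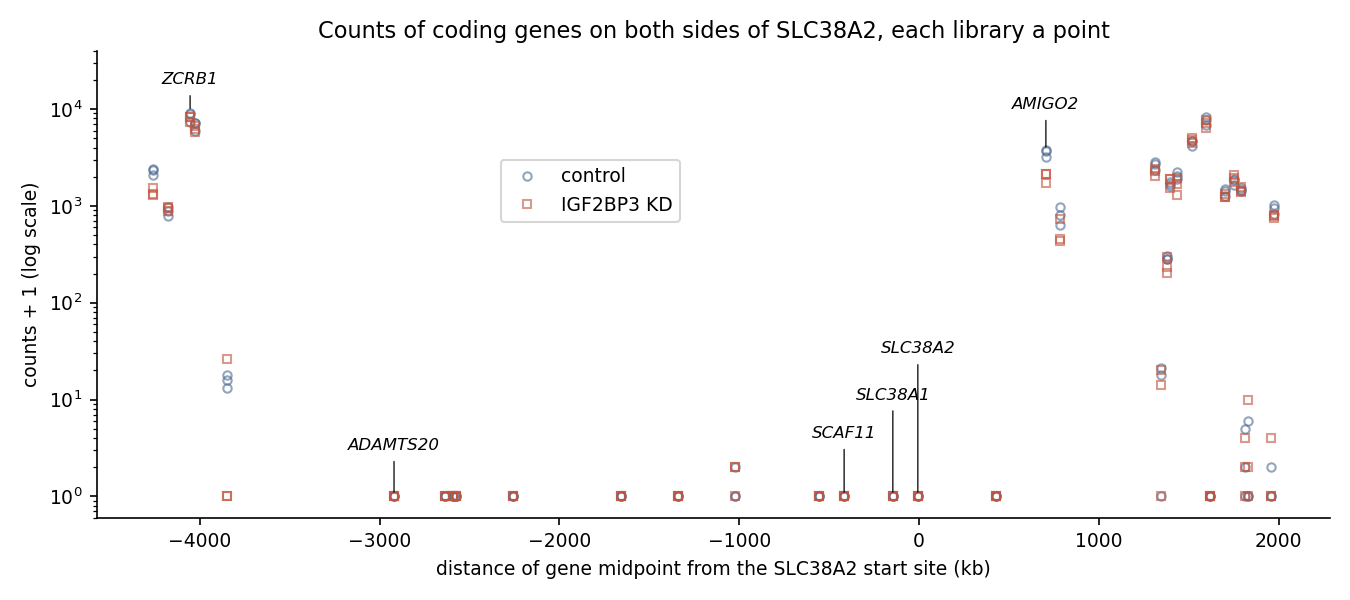
Counts plus 1 (log axis) of coding genes around *SLC38A2*, by the distance of the gene midpoint from the start site of *SLC38A2* in kb, with each library as a point (circles: control, squares: IGF2BP3 KD). From *ADAMTS20* to *SLC38A4* all points lie at 1 or 2 (0 or 1 count), between regions where most genes have counts, such as *ZCRB1* (7350 to 9180) and *AMIGO2* (1704 to 3810).

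The 3′ untranslated regions (UTRs) of the transcripts were searched for 3 short words. GATTACT was picked because genes that hold it had been lower in KD in earlier work on these data, ACACATC because genes that hold it had been higher, and TGGAC because it is a reported IGF2BP3 binding motif, so the values by word are a description. GATTACT is found in the 3′ UTR of 6.96% of 19195 coding genes and ACACATC in 9.14%. Among the transporters GATTACT occurred in *SLC7A1* and ACACATC in *SLC7A1*, *SLC7A11* and *SLC38A1*. TGGAC, which is a common word that 58.4% of genes hold, occurred in 8 of the 10, from 1 copy in *SLC3A2* to 6 in *SLC7A5*, and not in *SLC43A1* or *SLC6A9*. The UTRs differ greatly in length, from 167 bases in *SLC3A2* to 7859 in *SLC7A11*, and *SLC43A1* and *SLC6A9* have 562 and 1062. Across the tested genes the median log2 fold change was -0.14 with GATTACT against 0.01 without, 0.11 with ACACATC against -0.01 without, and 0.00 with and without TGGAC. A match describes the letters and does not show binding. The rarer words in the lowered transporters are shown with 10 bases on each side, the word in capitals, as read from hg38 on the minus strand.
SLC7A1, chr13:29510385-29510411: tcatgaaattGATTACTgttgatccag
SLC7A1, chr13:29510798-29510824: cttctgattcACACATCccatttttac
SLC7A11, chr4:138171310-138171336: tgtttatgagACACATCcaggagttat
SLC7A11, chr4:138171176-138171202: aaagtgtataACACATCttagagcaag

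Promoters from RefSeq (GRCh38.p14, 250 bases before to 50 after the start) were matched for 9 of the 10 transporters, all but *SLC7A11*. Both strands were searched for 3 motifs. The core that ATF4 binds with a C/EBP partner, TGATGNAA, is in 3.67% of 27305 promoters and was found in *SLC7A1*, *SLC3A2* and *SLC38A1*. The E-box CACGTG, bound by MYC and related factors, is in 7.43% and was found in *SLC7A5* and *SLC43A1*. The core of the antioxidant response element, TGACNNNGC, bound by NFE2L2, is in 13.6% and was found in *SLC7A1*, *SLC7A5* and *SLC3A2*. None of the 3 was found in the window of *SLC1A5*, *SLC1A4*, *SLC38A2* or *SLC6A9*. In a check of 15343 promoters, 12800 matched the start of the canonical transcript of the gene. A match describes the letters and does not show binding. Whether these motifs had a part in the changes was not tested. The matches in *SLC7A1*, *SLC3A2*, *SLC38A1*, *SLC7A5* and *SLC43A1* are shown with the motif in capitals. The ATF4 cores come first, then the E-boxes and the antioxidant cores. In *SLC3A2* the ATF4 core stands on the opposite strand.
SLC7A1, chr13:29595664-29595691, minus strand: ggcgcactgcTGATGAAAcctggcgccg
SLC3A2, chr11:62881726-62881748, plus strand: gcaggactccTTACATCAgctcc
SLC38A1, chr12:46266503-46266530, minus strand: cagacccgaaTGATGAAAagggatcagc
SLC7A5, chr16:87869622-87869647, minus strand: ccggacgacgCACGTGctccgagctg
SLC43A1, chr11:57515799-57515824, minus strand: gcgggcgagtCACGTGcgcgtgaaac
SLC7A1, chr13:29595755-29595783, minus strand: tgcccggcggTGACGCGGCcgagcgggcc
SLC7A5, chr16:87869491-87869519, minus strand: gcggggttccTGACGCAGCtgcgggcggc
SLC3A2, chr11:62881652-62881680, plus strand: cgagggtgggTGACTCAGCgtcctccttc

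A list of 37 other plasma membrane amino acid transporters had 20 with enough counts, of which 2 fell and 4 rose (10.0% and 20.0%, beside 10.6% and 9.87% of all genes), with a median log2 fold change of -0.02. The ones that rose were *SLC6A19*, *SLC1A1*, *SLC7A2* and *SLC38A7*. *SLC6A19*, which encodes the neutral amino acid transporter of the gut and kidney brush border, measured 4.67, 5.38 and 6.11 CPM in the control and 9.99, 9.66 and 10.0 CPM in KD. Its KD libraries were all above the control, and the log2 fold change was 0.88 (standard error 0.12, edgeR's adjusted p = 0.00048). *SLC1A1*, a glutamate transporter, rose from 7.18 ± 1.66 to 11.3 ± 0.406 CPM (SD, n = 3, log2 fold change 0.65, edgeR's adjusted p = 0.011). *SLC7A2*, a cationic amino acid transporter related to *SLC7A1*, had a log2 fold change of 0.47 (edgeR's adjusted p = 0.026) that lost its call in 5 of 6 fits with a library left out. *SLC3A1*, the heavy chain of the cystine transporter of kidney and gut, fell from 1.37 ± 0.365 to 0.498 ± 0.0707 CPM (SD, n = 3, edgeR's adjusted p = 0.0065). *SLC36A4* (log2 fold change -0.29, edgeR's adjusted p = 0.038) and *SLC38A7* (0.34, adjusted p = 0.023) were called, and lost the call in 5 and 4 of the 6 fits. *SLC3A1*, *SLC36A4* and *SLC38A7* were named after their values were seen.

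**Figure D4:**
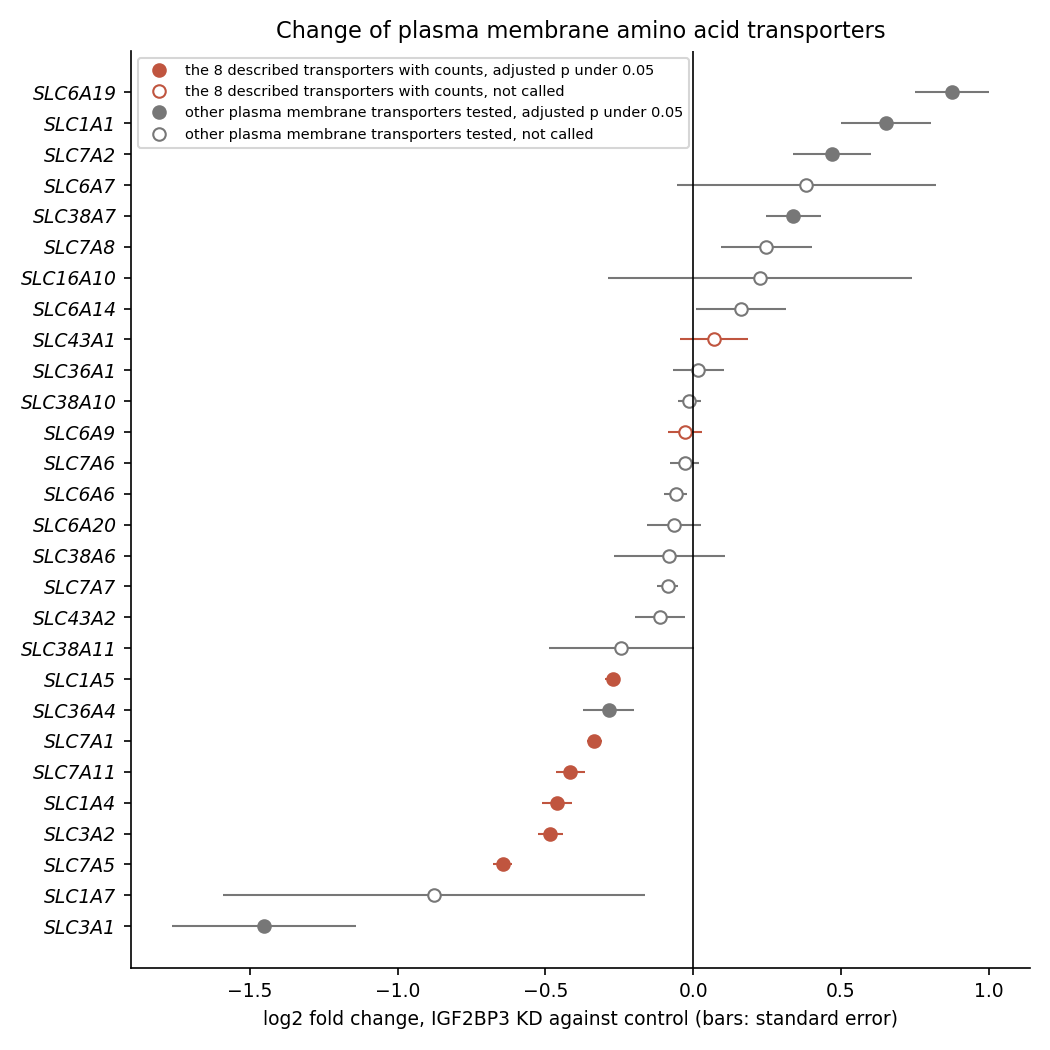
Log2 fold change (IGF2BP3 KD against control, horizontal axis, bars: standard error) of the 8 described transporters and the 20 other plasma membrane transporters tested, filled where the adjusted p is under 0.05. The 6 filled described transporters sit between -0.64 (*SLC7A5*) and -0.27 (*SLC1A5*), while the filled others run from -1.45 (*SLC3A1*) to 0.88 (*SLC6A19*).

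Transporters of the inner membranes were counted in the same way. Of 11 lysosomal and vesicular transporters tested, 4 rose and 0 fell in edgeR's test (36.4% and 0.00%, beside 9.87% and 10.6% of all genes). Among the 4 is *SLC38A7*, already counted among the plasma membrane transporters, since both lists hold it and *SLC36A1*. At an unadjusted p under 0.05, 1 was lower, and DESeq2 called 1 lower. *MFSD1*, which exports dipeptides from lysosomes, rose from 34.4 ± 2.46 to 71.9 ± 2.48 CPM (SD, n = 3, log2 fold change 1.06, edgeR's adjusted p = 6.5e-07). *SLC17A9* and *SLC17A5* rose by 0.49 and 0.35 (log2). They are known for carrying nucleotides and sialic acid, respectively, more than amino acids. Of 14 mitochondrial carriers tested, 3 fell and 3 rose (21.4% each). *SLC25A13*, an aspartate-glutamate carrier, fell from 76.1 ± 1.01 to 49.3 ± 2.29 CPM (SD, n = 3, edgeR's adjusted p = 6.1e-06), and *SLC25A40*, a glutathione carrier, had a log2 fold change of -0.48 (edgeR's adjusted p = 0.001). *SLC25A22*, a glutamate carrier, rose by 0.51 (log2, edgeR's adjusted p = 0.00043).

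A list of regulators joined those of the response to scarce amino acids with factors of the antioxidant response (*NFE2L2*, *BACH1*, *KEAP1*) and of the MYC and MAX network (*MYC*, *MAX*, *MLXIP*). Of 19 tested, 10 fell and 2 rose (52.6% and 10.5%, beside 10.6% and 9.87% of all genes). The median log2 fold change of the 19 was -0.16. *ATF4* itself fell from 437 ± 7.28 to 383 ± 4.74 CPM (SD, n = 3, log2 fold change -0.19, edgeR's adjusted p = 0.00028). *ATF3*, a stress-induced relative of ATF4, had a log2 fold change of -0.67 (edgeR's adjusted p = 0.0015). *EIF2S1*, which encodes the initiation factor subunit that is phosphorylated in the response, had -0.44 (edgeR's adjusted p = 1.1e-05). *BACH1*, a repressor of antioxidant genes, had -0.33 (edgeR's adjusted p = 0.0052). *NFE2L2*, which encodes the antioxidant regulator NRF2, fell from 373 ± 14.4 to 334 ± 4.28 CPM (SD, n = 3, edgeR's adjusted p = 0.0035). *DDIT3*, which encodes CHOP, and *MYC* were not called, at -0.17 (standard error 0.11, adjusted p = 0.32) and -0.08 (standard error 0.04, adjusted p = 0.2) in edgeR's test. Of the 2 that rose, *NUPR1* was under 1 CPM in both groups and *MLXIP* had a log2 fold change of 0.16 (edgeR's adjusted p = 0.02). Their calls were lost in 5 and 4 of the 6 fits with a library left out. Both were named after their values were seen.

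Of 29 ATF4 targets that are not transporters, 18 fell and 2 rose (62.1% and 6.90%, beside 10.6% and 9.87% of all genes). The median log2 fold change of the 29 was -0.25. A list close to this one had been used on these data before, so its direction is not independent evidence. *CHAC1*, which degrades glutathione, measured 64.0, 65.9 and 66.4 CPM in the control and 29.6, 31.4 and 30.9 CPM in KD. It fell by 1.09 on the log2 scale (edgeR's adjusted p = 1.5e-07). *VLDLR*, a lipoprotein receptor, fell from 35.9 ± 1.80 to 17.7 ± 1.35 CPM (SD, n = 3, edgeR's adjusted p = 3.2e-06). *ASNS*, asparagine synthetase, fell from 326 ± 8.33 to 261 ± 9.31 CPM (SD, n = 3, edgeR's adjusted p = 4.7e-05). The 2 that rose were *CTH*, an enzyme that makes cysteine, from 3.90 ± 0.127 to 6.82 ± 1.32 CPM (SD, n = 3, edgeR's adjusted p = 0.0043), and *PSAT1*, an enzyme of serine synthesis, by 0.24 (log2, edgeR's adjusted p = 6.8e-05). *PSAT1* was named after its value was seen.

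A list around mTORC1 held the sensors of amino acids, the Rag GTPases and their regulators, and also the kinase complex itself and the TSC and RHEB arm that growth factors act on. Of its 32 genes, 6 fell and 4 rose (18.8% and 12.5%, beside 10.6% and 9.87% of all genes). The median log2 fold change of the 32 was 0.03. Of the 6, *MTOR*, *RPTOR* and *RHEB* are not sensors, and *SEH1L*, of the GATOR2 complex, is also a nuclear pore protein. The 4 that rose were *CASTOR1*, *RRAGA*, *RRAGC* and *LAMTOR3*, at log2 fold changes of 0.41, 0.40, 0.36 and 0.23. Their adjusted p in edgeR's test was 0.022, 0.003, 0.0017 and 0.0087, in that order. *SESN2*, a leucine sensor and itself an ATF4 target, fell from 27.9 ± 1.22 to 19.1 ± 1.79 CPM (SD, n = 3, edgeR's adjusted p = 0.00047). *CASTOR2*, of the arginine sensor family, had a log2 fold change of -0.54 (edgeR's adjusted p = 0.00019), and *RHEB*, the GTPase that activates mTORC1, fell from 101 ± 7.24 to 70.0 ± 2.75 CPM (SD, n = 3, edgeR's adjusted p = 5.3e-05). Of 28 enzymes that use the imported amino acids, 6 fell and 3 rose (21.4% and 10.7%, beside the same 10.6% and 9.87%). The median log2 fold change of the 28 was -0.03. *DBT*, a subunit of the complex that breaks down branched-chain keto acids, had a log2 fold change of -0.66 (edgeR's adjusted p = 4.6e-05), while *BCAT2*, which starts the breakdown of branched-chain amino acids, rose by 0.43 (log2, edgeR's adjusted p = 0.00059). *SESN2* and *ASNS* stand in 2 lists each. *MTOR*, *RPTOR*, *SEH1L* and the 4 genes of the mTORC1 list that rose were named after their values were seen.

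**Figure D5:**
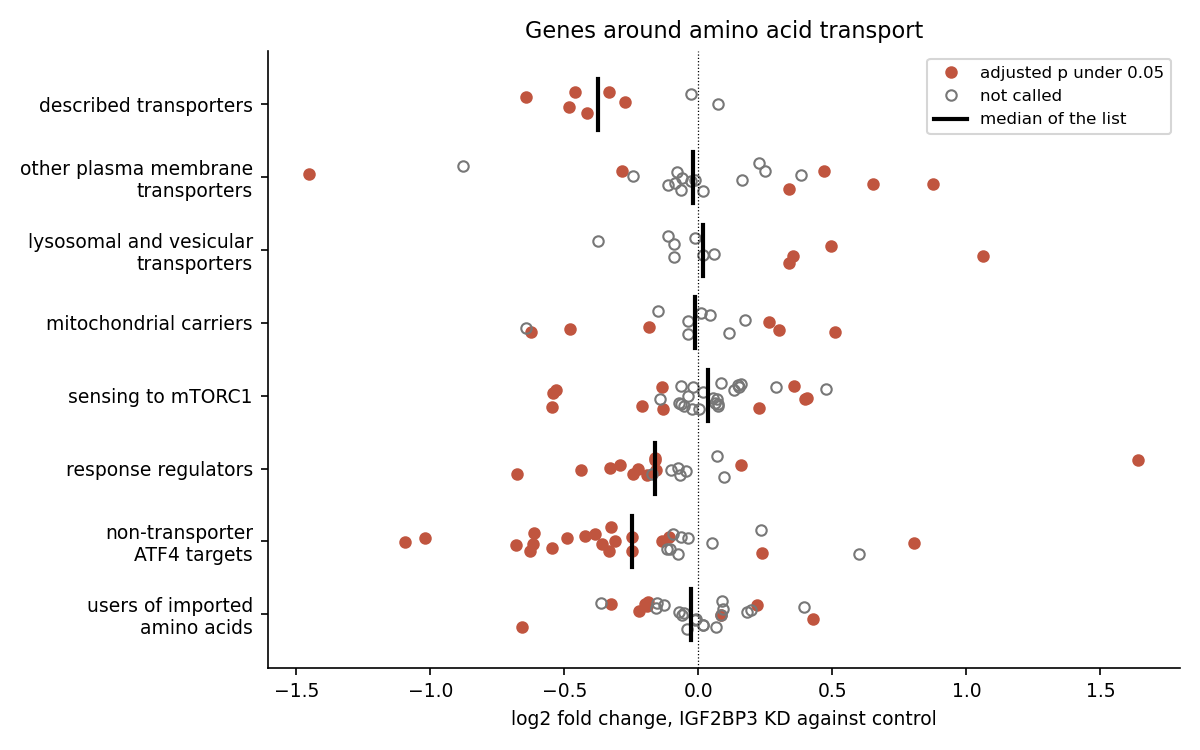
Log2 fold change (IGF2BP3 KD against control, horizontal axis) of each tested gene in 8 lists around amino acid transport (filled: adjusted p under 0.05, open: not called, black bar: median of the list). The medians of the described transporters (-0.38), of the non-transporter ATF4 targets (-0.25) and of the regulators (-0.16, labelled response regulators) lie left of 0, and those of the other 5 lists lie between -0.03 and 0.03.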

How the data were processed

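The authors trimmed 150-base paired reads with fastp, aligned them to hg38 with HISAT2 and deposited raw counts per gene from featureCounts. The annotation release and strand setting are not given in the sources used here. Of 60612 rows, 132 repeated rows of 44 identifiers were left out. Genes were kept by filterByExpr (minimum count 10, minimum total 15), scaled by TMM and tested with edgeR's quasi-likelihood test (edgeR 4.0.16, R 4.3.3), control against IGF2BP3 KD. DESeq2 1.42.0, relative log expression scaling, other low-count filters, a replicate block and each library left out were alternatives. Standard errors were derived from edgeR's test, as the absolute log2 fold change divided by the square root of the F statistic. The edgeR fit was tested on simulated counts with planted changes. Same-numbered libraries did not vary together (correlations -0.0315 to 0.00915). Gene models were GENCODE v44 and 3′ UTRs those of Ensembl canonical transcripts. Beside the transporters, the text names up to 3 called genes per list with the largest changes and a mean of 1 CPM or more, the light chains, and *ATF4*, *DDIT3*, *ASNS*, *MYC* and *NFE2L2*. The members and lists were chosen with earlier results of these data known.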

Additional observations from a re-analysis of the deposited data

How the results depend on the processing

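The transporters were selected on this same contrast in these libraries, so their calls under other settings are a description. In each of 11 alternatives 6 transporters were called lower and 0 higher, and 86 of 88 log2 fold changes kept their direction. The exceptions were those of the genes not called. With a library left out, *SLC43A1* ranged from -0.0293 (without control library 2) to 0.168 (0.07 with all), and *SLC6A9* from -0.0563 to 0.00438 (without control library 3; -0.03 with all). In the same fits *SLC7A5* ranged from -0.68 to -0.63 and *SLC7A11* from -0.45 to -0.36. Among all genes, 1641 to 1970 were then called lower and 1414 to 1741 higher. The replicate numbers share only a number, and a replicate block gave 2026 lower and 1875 higher and left 1 response regulator higher. Without a low-count filter the other plasma membrane transporters had 1 lower and 2 higher, and the regulators 0 higher. DESeq2 and a minimum of 10 counts in every library each gave 1 lysosomal transporter lower and 1 regulator higher. With a library left out, other plasma membrane transporters had 1 to 2 lower and 2 to 4 higher, mitochondrial carriers 1 to 3 higher, regulators 0 to 2 higher and amino acid users 1 to 3 higher. The cause was not tested. The ratio of *SLC3A2* to its light chains was 0.601 in the control and 0.581 in KD with the longest transcript as length (0.307 and 0.305 with merged exons).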
